A study of Mus musculus with 6 samples.

Results

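The genes described here build the tail of a sperm: the dynein arms, radial spokes, central pair and doublet microtubules of the axoneme, and the fibrous sheath and dense fibres that wrap it. They were chosen by symbol, with earlier results of these data known. Of 42 listed genes, 37 had at least 1 probe set with exactly that symbol in the annotation of the array platform, which gave 66 of the 45037 probe sets tested and 37 of 18193 genes. Dnah3, Dnah10, Dnai1, Dnai2 and Fsip2 matched no probe set by that rule. Grouped by role, 16 probe sets belonged to dynein arms (9 of 13 listed genes), 7 to radial spokes (6 of 6), 15 to the central pair (7 of 7), 12 to the doublets (9 of 9) and 16 to the sheath (6 of 7). No filter on low values was applied, so all 66 were tested.

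The arrays measured total RNA of whole testis from Phf13 knockout mice (3 arrays) and wild-type mice (3 arrays), all 5 weeks old. Phf13 encodes a PHD finger protein that binds methylated histone H3. The comparison asks which transcripts differ when Phf13 is missing. What kind of allele it is, which strain was used and whether each array came from its own animal were facts not given in the sources used here. Reported p-values therefore cover the spread among these 6 arrays alone, and that spread may be technical. Values are the authors' log2 values, and a difference is the mean of knockout arrays minus that of wild-type arrays on that scale.

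The axoneme is a ring of doublet microtubules around a central pair. Dynein arms on the doublets are the motors that bend it. Radial spokes reach from the doublets to the central pair and pass on the signals that set the waveform, and nexin links and rulers hold the repeat in register. In sperm this core is wrapped by outer dense fibres and, further along the tail, by the fibrous sheath, a scaffold for kinases and glycolytic enzymes. Many of these genes are first transcribed in meiotic spermatocytes and the sheath genes mostly in spermatids. Several parts have separate forms for sperm and for the motile cilia of airway, brain and oviduct.

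Knockout of the target was visible on every array: the only Phf13 probe set stood at 6.71, 6.60 and 6.55 on knockout arrays, against 9.55, 9.47 and 9.56 on wild-type arrays. Array medians lay between 5.22 and 5.28, and upper quartiles between 7.22 and 7.35. The arrays fell into 2 sets by the signal of the 18S ribosomal RNA control probe sets: knockout 1, wild type 1 and wild type 2 were at 12.03 to 12.67, and knockout 2, knockout 3 and wild type 3 at 9.69 to 10.71. For the actin control, the 3' probe set exceeded the 5' one by 0.75 to 0.89 in the high 18S set and by 0.56 to 0.59 in the low 18S set. Both genotypes were present in each, and differences within each are given beside the results they touch. Such a difference has a single array on one side, so it carries no test.

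Most members were bright in testis: 45 of 66 probe sets had a mean over the 6 arrays above the upper quartile of all probe sets, and 7 lay under the lower quartile. Levels of different probe sets depend on their probes and were not set against each other as amounts of RNA. The sheath probe sets ran from 6.85 to 13.09 and none was under the array median of probe set means, at 5.26. Doublet probe sets ran from 2.22 to 11.79, radial spoke probe sets from 2.84 to 12.64, dynein arm probe sets from 3.29 to 11.03 and central pair probe sets from 2.13 to 10.40. Genes with several probe sets often had a bright and a dim one: Dnah2 had means of 9.54 and 3.29, and Spag16 had means of 10.26, 7.11, 3.07 and 2.47.

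Only 1 member passed the test, a probe set of the radial spoke gene Rsph3a, which rose. No member fell past the threshold. The test was limma across all 45037 probe sets, adjusted by Benjamini-Hochberg and read at 0.05. It called 25 probe sets higher (0.0555%) and 20 lower (0.0444%) in knockout, 45 in either direction (0.0999%). Of the 66 members, 1 was called higher and 0 lower. Because the members were chosen with earlier results of these data known, this count cannot be read as an excess over those shares. At an unadjusted p under 0.05, 1 member was higher and 14 were lower in knockout, against 6.81% and 8.31% of all probe sets; the 14 are 21.2% of the members.

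Differences of the other members were small and mostly below 0. The median over all 66 was -0.11, against 0.00 over all probe sets, and 48 of 66 (72.7%) were below 0, against 48.6% of all. Among probe sets with a mean above the array median, 78% of members were below 0, against 55.6% of all. Leaving the 2 Rsph3a probe sets aside, differences ran from -0.51 to 0.12. The knockout arrays lay wholly under the wild-type arrays for 14 members (21.2%), against 10.7% of all probe sets. They lay wholly above for 1 member, a probe set of Rsph3a, against 8.62% of all.

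**Figure D1:**
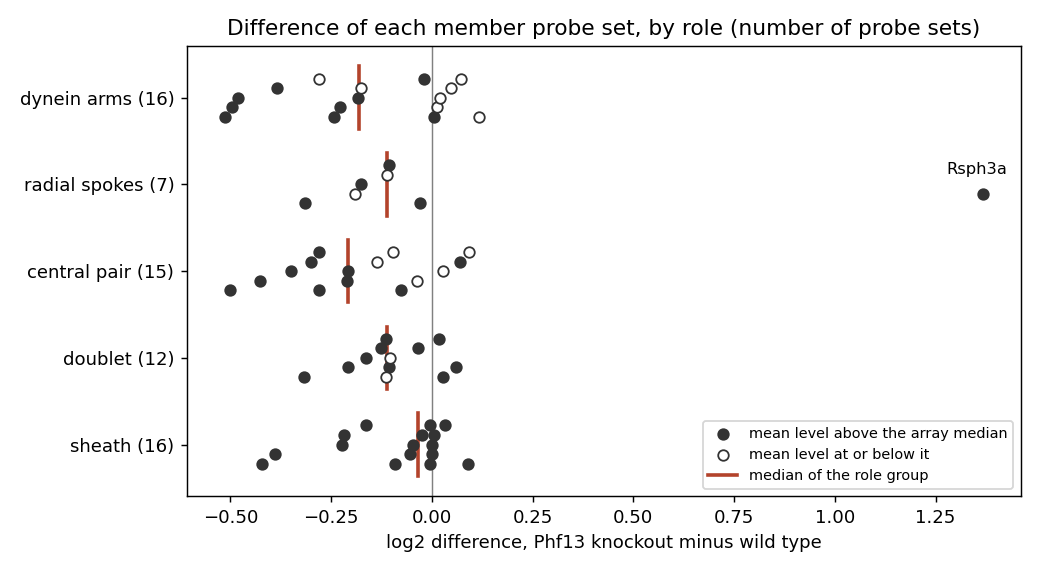
Each point is a member probe set, placed by its log2 difference, Phf13 knockout minus wild type; rows are role groups, filled points have a mean level above the median of all probe sets, and red bars mark group medians. All points lie between -0.51 and 0.12 except a probe set of Rsph3a at 1.37, and the group medians run from -0.21 for the central pair to -0.04 for the sheath.

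Across the whole array the median difference changed with brightness, but not in a single direction: it was lowest at middle levels and near 0 in the brightest probe sets. Over all probe sets with a mean level of 8 to 10 the median difference was -0.08, against 0.03 under 6. Members had medians of -0.21 at levels of 8 to 10 (16 probe sets), -0.26 at 6 to 8 (10 probe sets, where all probe sets had -0.03), -0.07 at 10 to 12 (14 probe sets, against -0.03) and -0.02 above 12 (9 probe sets, against 0.00). Under 6 the 17 members had a median of -0.10. All of the 14 members that were lower at an unadjusted p under 0.05 had a level above the median of all probe sets. They are 28% of the 50 members above it, against 12.6% of all probe sets above it. The 14 without overlap are likewise 28% of these members, against 17.1% of all probe sets above the median. This contrast was not the same at every level. At 6 to 8 the lower share without overlap was 50% of members against 18% of all, and at 10 to 12 28.6% against 15.8%. At 8 to 10 it was 25% against 23.6%, above 12 it was 11.1% against 11.8%, and under 6 it was 0% against 5.04%.

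**Figure D2:**
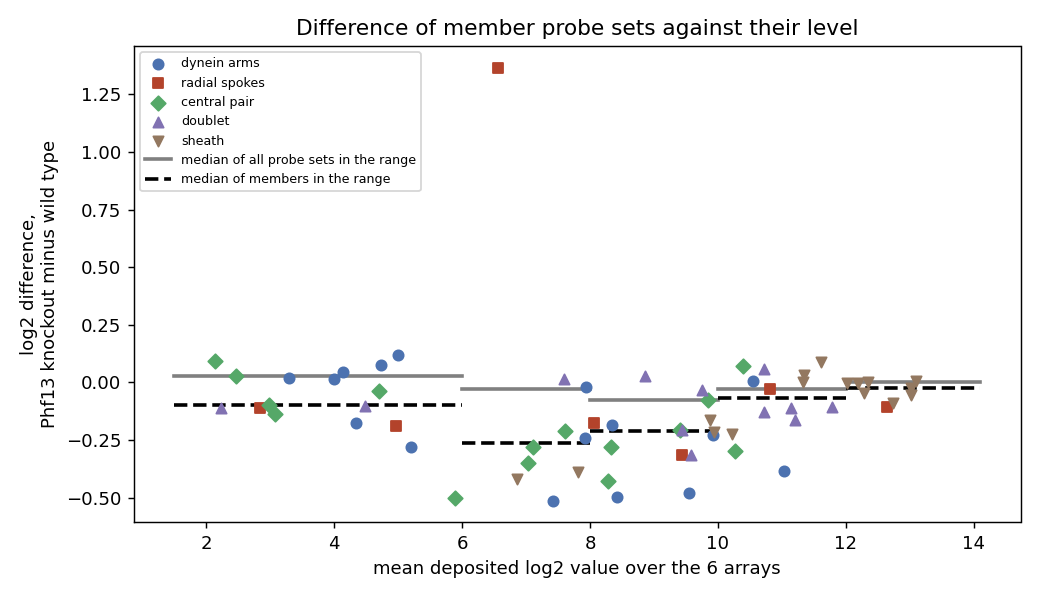
Member probe sets are placed by their mean log2 value over the 6 arrays (horizontal) and their log2 difference, Phf13 knockout minus wild type (vertical), with a symbol for each role; grey lines are medians of all probe sets and dashed lines medians of members in 5 ranges of level. The dashed line lies lowest between 6 and 10, at -0.26 and -0.21, where the grey line is at -0.03 and -0.08.

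Rsph3a belongs to the stalk of the radial spoke and in mouse has a close copy, Rsph3b, on the same chromosome. Its 2 probe sets gave different answers. Probe set 1432579_at stood at 7.39, 7.13 and 7.21 on knockout arrays, against 5.75, 5.98 and 5.90 on wild-type arrays. Every knockout array was above every wild-type array. The means were 7.24 ± 0.13 in knockout and 5.88 ± 0.12 in wild type (SD, n = 3 each), a rise of 1.37 on the log2 scale (SE 0.11, 95% interval 1.12 to 1.61), or 2.58-fold, with limma's adjusted p = 0.00328. Within the high 18S set the difference was 1.53, and within the low 18S set 1.27.

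Probe set 1432580_at of Rsph3a stood at 4.84, 4.82 and 4.96 on knockout arrays, against 4.96, 5.07 and 5.16 on wild-type arrays. The groups met at 4.96, and the difference was -0.19 (95% interval -0.40 to 0.02) with limma's adjusted p = 0.379. A further probe set, 1423119_at, is annotated to both Rsph3b and Rsph3a and so names neither; it was bright and stood at 12.62, 12.66 and 12.59 on knockout arrays, against 12.70, 12.75 and 12.78 on wild-type arrays, a difference of -0.12 (95% interval -0.31 to 0.07; limma adjusted p = 0.522). In each array the first Rsph3a probe set exceeded the second, by 2.25 to 2.55 in knockout and by 0.74 to 0.91 in wild type. Which exons or transcript ends each of these probe sets reads, and whether any binds both copies, was not stated in the labels or the annotation.

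**Figure D3:**
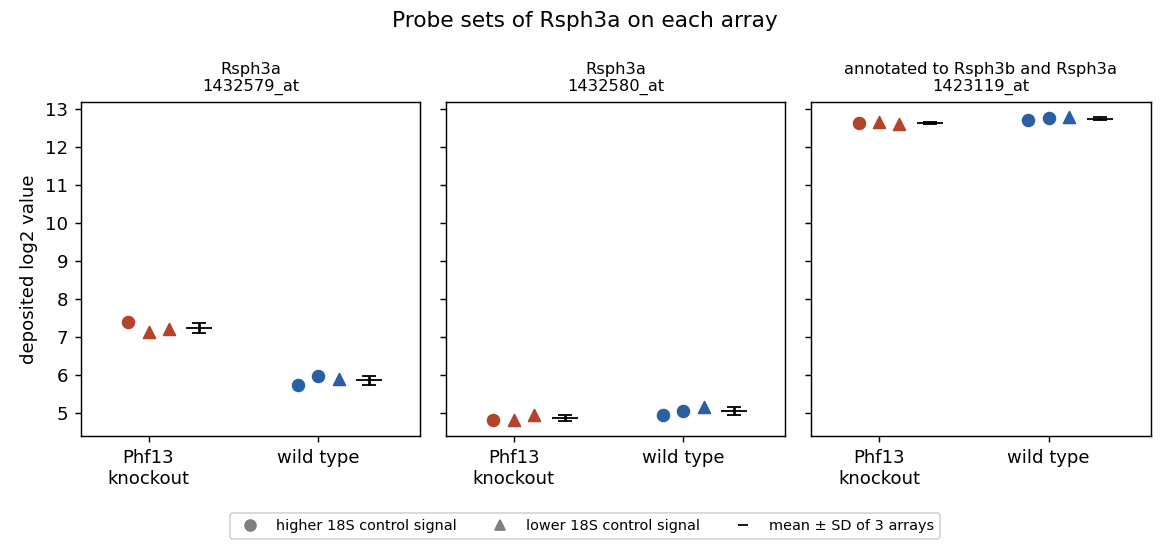
Deposited log2 values on each array for the 2 Rsph3a probe sets and for the probe set annotated to Rsph3b and Rsph3a, with Phf13 knockout arrays left of wild-type arrays; circles and triangles are the sets of arrays with higher and lower 18S signal, and bars are mean ± SD of 3 arrays. Groups separate upward only in the first panel, with knockout means of 7.24, 4.87 and 12.62 against 5.88, 5.06 and 12.74 in wild type.

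The promoter of Rsph3a is shown because this gene carries the only call among the members. It is the RefSeq window of 250 bases before to 50 bases after the gene start (GRCm38.p6, chr17:7945364-7945663, plus strand), read for the core of the site bound by RFX factors, which drive ciliary genes. That core was searched as GTTGCC on both strands, its other strand reading GGCAAC, and a match would be in capitals.
Rsph3a: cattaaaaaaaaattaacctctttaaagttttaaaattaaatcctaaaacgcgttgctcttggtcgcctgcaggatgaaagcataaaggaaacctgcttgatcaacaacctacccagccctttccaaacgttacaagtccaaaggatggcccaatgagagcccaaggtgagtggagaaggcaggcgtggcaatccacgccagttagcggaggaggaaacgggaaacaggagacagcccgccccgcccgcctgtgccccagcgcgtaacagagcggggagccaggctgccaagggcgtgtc
These letters do not hold the core. The window of the copy Rsph3b (chr17:6948315-6948360, minus strand) does, shown with 20 bases on either side.
Rsph3b: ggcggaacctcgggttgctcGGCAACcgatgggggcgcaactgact

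The core was found in the promoter windows of 11 of the 36 listed genes that the RefSeq table holds, or 12 of 44 windows (27.3%), against 12.5% of all 32851 windows. The genes with it were mostly of the central pair (4 of 7) and the doublets (5 of 9), with 1 of 10 dynein arm genes, 0 of 4 radial spoke genes and 1 of 6 sheath genes. The forkhead core GTAAACA, searched on both strands, was in 3 of 44 windows (6.82%), against 3.65% of all. A match is a description of the letters, and it was not compared with the members' differences. Windows around the core are shown for Spef2 (chr15:9748835-9748880, minus strand), Spag16 (chr1:69826839-69826892, plus strand) and Drc1 (chr5:30281362-30281407, plus strand), which have the smallest p in the central pair and doublet groups and whose values follow.
Spef2: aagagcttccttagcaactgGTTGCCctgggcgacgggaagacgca
Spag16: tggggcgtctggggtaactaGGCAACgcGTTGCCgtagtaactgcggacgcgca
Drc1: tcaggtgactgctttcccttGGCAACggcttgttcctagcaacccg

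The other radial spoke genes did not share the rise. Rsph6a, a spoke head gene of sperm, stood at 9.34, 9.34 and 9.14 on knockout arrays, against 9.74, 9.57 and 9.45 on wild-type arrays. The groups did not overlap, and the difference was -0.31 (SE 0.11; limma adjusted p = 0.259). Its relative in motile cilia, Rsph4a, was among the dimmest probe sets, at 2.65 to 2.99 in knockout and 2.80 to 3.05 in wild type. Rsph1, a spoke head gene and the brightest of the group, stood at 12.56, 12.64 and 12.57 on knockout arrays, against 12.74, 12.67 and 12.68 on wild-type arrays, without overlap and with a difference of -0.11 (95% interval -0.30 to 0.08). Rsph14 differed by -0.18 and the spoke head gene Rsph9 by -0.03 (95% interval -0.25 to 0.19). All 5 of these genes were below 0, against 48.6% of all probe sets and 55.6% of those above the median level, and 0 passed in limma. Of the 5, 1 (20%) was lower at an unadjusted p under 0.05, against 8.31% and 12.6%.

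Dynein heavy chains are the motor subunits, and among them Dnah9 had the lowest difference of all members. Dnah9, a heavy chain of outer arms in motile cilia, stood at 7.27, 7.12 and 7.12 on knockout arrays, against 7.86, 7.58 and 7.61 on wild-type arrays. Each knockout array was under each wild-type array, with a difference of -0.51 (SE 0.11; limma adjusted p = 0.157) and with -0.45 and -0.49 within the high and low 18S sets. A dim second probe set of Dnah9 differed by 0.01 at a mean level of 3.99. The inner arm heavy chain gene Dnah1 stood at 7.81, 7.81 and 7.77 on knockout arrays, against 8.06, 7.98 and 8.08 on wild-type arrays. That probe set differed by -0.24 without overlap (limma adjusted p = 0.256), and the other of Dnah1 by -0.50 with overlap (limma adjusted p = 0.278).

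Dnah8, an outer arm heavy chain of sperm and the brightest dynein gene here, stood at 10.97, 10.88 and 10.65 on knockout arrays, against 11.31, 11.43 and 10.91 on wild-type arrays. Wild type 3 lay under knockout 1, so the groups overlapped, and the difference was -0.38 (SE 0.15; limma adjusted p = 0.293), or -0.40 within the high 18S set and -0.15 within the low one. Dnah2, an inner arm heavy chain, also had wild type 3 under knockout 1: it stood at 9.46, 9.32 and 9.13 on knockout arrays, against 9.99, 9.96 and 9.40 on wild-type arrays. Its difference was -0.48 (limma adjusted p = 0.261), and -0.52 and -0.18 within the high and low 18S sets. In Dnah2, Dnah8 and the second Dnah1 probe set, the lowest wild-type array was wild type 3. Dnah17, an outer arm heavy chain of sperm, was read by a single dim probe set, at 4.14 to 4.19 in knockout and 4.06 to 4.17 in wild type. The cilia forms Dnah5 and Dnah11 were also dim and differed by 0.07 and 0.12, with intervals of -0.33 to 0.48 and -0.11 to 0.34.

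The light chain gene Dnali1, of inner arms, had a probe set at 10.56 ± 0.08 in knockout and 10.55 ± 0.14 in wild type (SD, n = 3 each), and another that differed by -0.23 (95% interval -0.47 to 0.02). The 3 probe sets of the light chain gene Dnal1, of outer arms, differed by -0.18, -0.02 and -0.28. In all, 10 of 16 dynein arm probe sets (62.5%) were below 0, against 48.6% of all probe sets and 55.6% of those above the median level. Their median of -0.18 was -0.0683 without wild type 3 and -0.0927 with array weights. Without overlap between genotypes were 2 (12.5%, both lower), against 10.7% of all probe sets and 17.1% of those above the median level. At an unadjusted p under 0.05, 5 (31.2%) were lower, against 8.31% of all probe sets and 12.6% of those above the median level, and 0 passed the adjusted threshold in limma. The array lists 2 further genes under the older symbols Dnaic1 and Dnaic2, which the exact rule leaves out: the Dnaic1 probe sets differed by -0.21 and -0.24, both without overlap, and those of Dnaic2 by -0.15 and -0.04.

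The central pair group had the lowest median, -0.21, with 12 of 15 probe sets (80%) below 0. Of all probe sets 48.6% were below 0, and of those above the median level 55.6%. Without overlap between genotypes were 6 (40%, all lower), against 10.7% of all probe sets and 17.1% of those above the median level. At an unadjusted p under 0.05, 6 (40%) were lower, against 8.31% and 12.6%, and none passed the adjusted threshold in limma. Spef2, a central pair protein that mouse sperm tails need, stood at 6.86, 6.85 and 6.84 on knockout arrays, against 7.17, 7.12 and 7.31 on wild-type arrays. The knockout arrays lay close together and under all wild-type arrays, with a difference of -0.35 (SE 0.09; limma adjusted p = 0.198). A brighter Spef2 probe set differed by -0.28, also without overlap, and a dim one at a mean level of 2.13 by 0.09.

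Spag16, the mouse form of an algal central pair protein, stood at 7.01, 7.0 and 6.91 on knockout arrays, against 7.22, 7.27 and 7.27 on wild-type arrays. Its brightest probe set stood at 10.07, 10.23 and 10.04 on knockout arrays, against 10.37, 10.37 and 10.50 on wild-type arrays. Neither overlapped, and they differed by -0.28 and -0.30 (limma adjusted p = 0.224 and 0.238). Hydin, of a central pair projection, differed by -0.43 with overlap, or -0.35 and -0.21 within the high and low 18S sets. Spag17, another projection gene, had a probe set that differed by -0.50 and a brighter one that differed by -0.08 (95% interval -0.47 to 0.32). Ak7, an adenylate kinase of cilia and sperm tails, and Spef1, which bundles microtubules, differed by -0.21 each in their bright probe sets, without overlap.

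Spag6, a central pair gene, was the only one of the 7 whose brightest probe set lay above 0. It stood at 10.60, 10.32 and 10.37 on knockout arrays, against 10.32, 10.21 and 10.55 on wild-type arrays, with full overlap and a difference of 0.07 (95% interval -0.21 to 0.35). Within the high and low 18S sets it differed by 0.34 and -0.21, and its sign also turned without knockout 1 (-0.015) or wild type 2 (-0.005). Its relative Spag6l, which is not among the 42 genes, differed by -0.25 without overlap (limma adjusted p = 0.310).

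**Figure D4:**
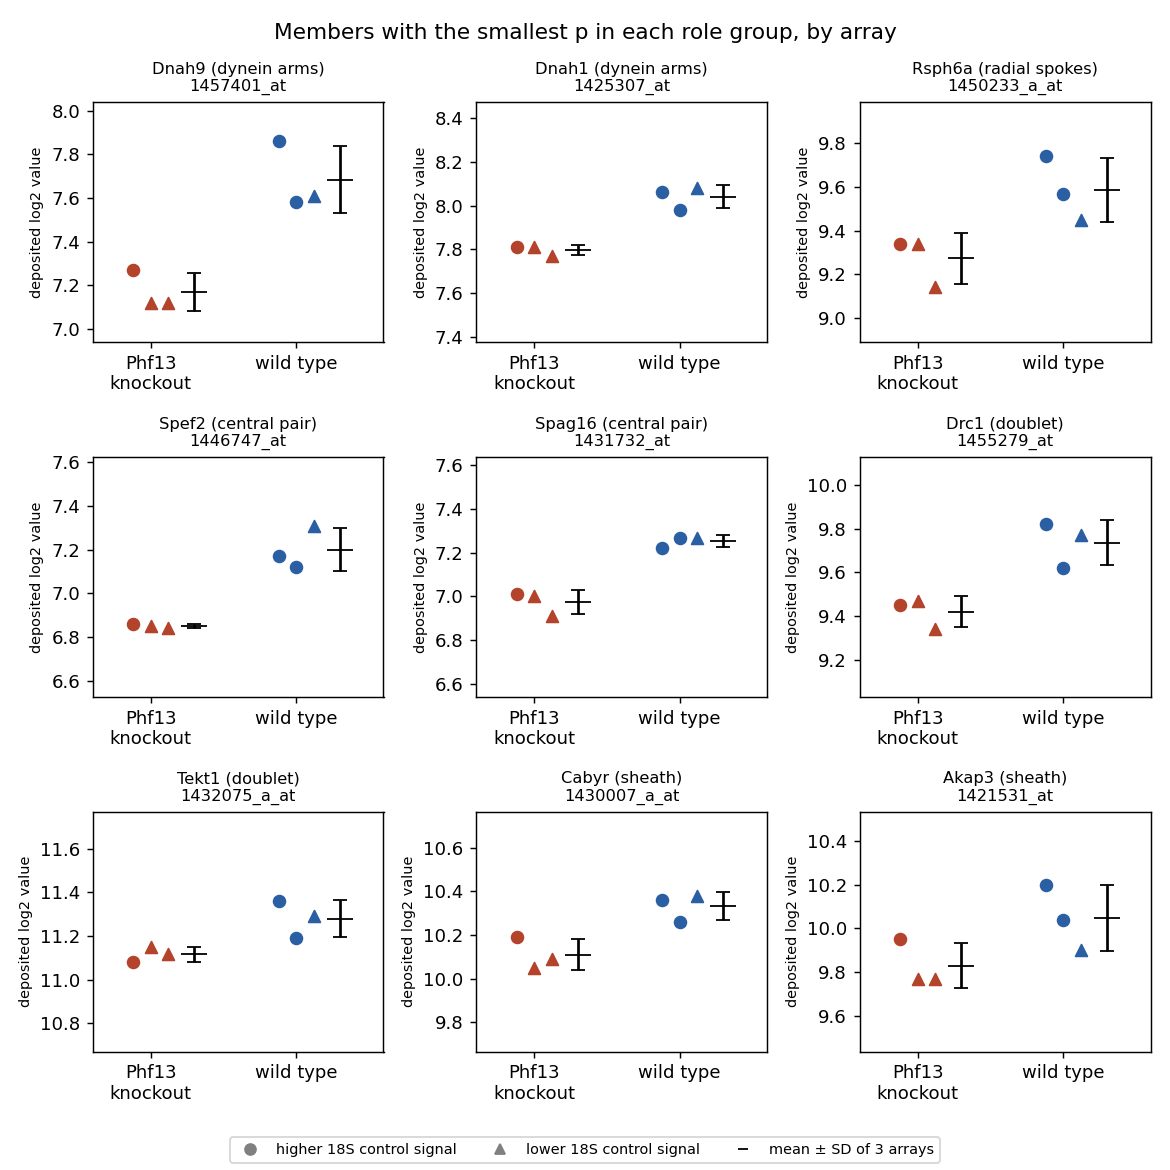
Deposited log2 values on each array for the members with the smallest p of each role group other than Rsph3a, with Phf13 knockout arrays left of wild-type arrays; every panel spans the same number of log2 units, circles and triangles are the sets of arrays with higher and lower 18S signal, and bars are mean ± SD of 3 arrays. Knockout arrays lie under wild-type arrays in all panels except Akap3, where 9.95 in knockout 1 is above 9.90 in wild type 3; no panel shows a gene that passed the adjusted threshold.

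Doublet genes had a median of -0.11, with 9 of 12 probe sets (75%) below 0 and 0 past the threshold in limma. Below 0 were 48.6% of all probe sets and 55.6% of those above the median level. At an unadjusted p under 0.05, 1 doublet probe set (8.33%) was lower. That is near the 8.31% of all probe sets and under the 12.6% of those above the median level. Drc1, of the nexin-dynein regulatory complex, stood at 9.45, 9.47 and 9.34 on knockout arrays, against 9.82, 9.62 and 9.77 on wild-type arrays. The groups did not overlap and differed by -0.32 (SE 0.09; limma adjusted p = 0.224), or -0.27 and -0.37 within the high and low 18S sets. Gas8, of the same complex, differed by 0.03 in its bright probe set (95% interval -0.19 to 0.25). Ccdc39 and Ccdc40 form the ruler that spaces the arms and spokes. Ccdc40 differed by -0.21, and the probe sets of Ccdc39 by 0.06, 0.02 and -0.11. Wild type 1 stood apart in Ccdc39: 1 probe set read 6.94 there, against 7.83 and 7.96 on the other wild-type arrays and 7.49 to 7.66 in knockout.

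Tektins are filaments inside the doublet wall. Tekt1 stood at 11.08, 11.15 and 11.12 on knockout arrays, against 11.36, 11.19 and 11.29 on wild-type arrays, without overlap and with a difference of -0.16 (95% interval -0.36 to 0.04). Tekt2, the brightest doublet gene, stood at 11.79, 11.67 and 11.74 on knockout arrays, against 11.98, 11.71 and 11.83 on wild-type arrays, and differed by -0.11 with overlap (95% interval -0.33 to 0.12). Tekt3, Tekt4 and Tekt5 differed by -0.13, -0.11 and -0.03. The 5 tektin genes were all below 0, as were 55.6% of all probe sets above the median level, and none had an unadjusted p under 0.05.

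Sheath and dense fibre genes lay nearest 0, with a median of -0.04 over 16 probe sets and -0.00 when only the brightest probe set of each gene was counted. Akap4 and Akap3 are the main scaffold proteins of the fibrous sheath. The 3 probe sets of Akap4, which is X-linked, differed by -0.00, -0.05 and -0.00, with intervals that together span -0.25 to 0.24. The brightest Akap3 probe set stood at 13.05, 13.12 and 13.11 on knockout arrays, against 13.10, 13.05 and 13.11 on wild-type arrays; the other stood at 9.95, 9.77 and 9.77, against 10.20, 10.04 and 9.90, and differed by -0.22 (95% interval -0.46 to 0.03). Array maxima were 13.98 to 14.01, and whether differences are compressed near them was not tested.

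Ropn1 and Ropn1l, which dock on the Akap scaffold, differed by -0.00 and -0.02 in their bright probe sets, with intervals of -0.21 to 0.20 and -0.21 to 0.16. Cabyr, a calcium-binding sheath gene, had probe sets that disagreed: 1430007_a_at stood at 10.19, 10.05 and 10.09 on knockout arrays, against 10.36, 10.26 and 10.38 on wild-type arrays, a difference of -0.22 without overlap (limma adjusted p = 0.296), while the 2 brighter ones differed by 0.09 and 0.03. The bright probe sets of Odf2, a dense fibre and centriole gene, differed by -0.05 and -0.09. The dimmest of its 5 probe sets differed by -0.42 over all arrays, but by -0.95 within the high 18S set and 0.30 within the low one. Only the Cabyr probe set had an unadjusted p under 0.05 in this group (6.25%, against 8.31% of all probe sets lower), and 0 of 16 passed in limma.

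Within the high and low 18S sets the group medians were -0.24 and -0.21 for the central pair, -0.16 and -0.12 for dynein arms, -0.18 and -0.08 for radial spokes, -0.11 and -0.13 for the doublets and -0.03 and -0.02 for the sheath. All were below 0 in both sets. Over all probe sets they were -0.01 in either set, over those above the median level -0.08 and -0.02, and over those at levels of 8 to 10 -0.12 and -0.07.

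Genes that build and load the axoneme without being members were counted from lists made for this comparison. Of 20 genes of intraflagellar transport, the trains that carry parts along a growing tail, 33 of 35 probe sets were below 0 with a median of -0.11; 9 (25.7%) were lower and 0 higher at an unadjusted p under 0.05. Over all probe sets the lower share was 8.31%, over those above the median level 12.6% and over those at levels of 8 to 10 16%. In the same order, 48.6%, 55.6% and 64.8% of them were below 0. The motor gene Kif3b differed by -0.35 and -0.57 in its probe sets, Ift27 by -0.34 and Ift52 by -0.31. Dynein assembly, docking and other axoneme genes (31 of 38 measured) had 38 of 44 probe sets below 0 and a median of -0.16, with 6 (13.6%) lower and 0 higher at that p, near the share of bright probe sets. The docking gene Ccdc151 differed by -0.34, the heavy chain gene Dnah6 by -0.54 and Cfap70 by -0.28. Ciliary transcription factors (11 of 13 measured) had 23 of 28 below 0 and a median of -0.10, with 4 (14.3%) lower, also near that share, and 1 higher. Foxj1, a forkhead factor of motile cilia, differed by -0.31. Rfx4 differed by -0.27 in a probe set and by -0.07 in its other one. Sox5 differed by 0.26 in a dim probe set and by -0.23, -0.10 and -0.06 in bright ones. A second list of sheath and dense fibre genes (18 of 20 measured) had 21 of 37 below 0, a median of -0.02 and none at an unadjusted p under 0.05. None of the genes in these 4 lists passed the adjusted threshold in limma.

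Markers of germ cell stages and of Sertoli cells were read in the same comparison. In bulk tissue, fewer cells of a type and less RNA per cell cannot be told apart. Markers of pachytene and later spermatocytes had 20 of 21 probe sets below 0 and a median of -0.18; their mean level was 9.60 to 9.66 on knockout arrays and 9.79 to 9.80 on wild-type arrays. Markers of Sertoli cells had 20 of 23 above 0 and a median of 0.27, with a mean level of 8.34 to 8.42 on knockout arrays and 8.06 to 8.14 on wild-type arrays. Round and elongating spermatid markers had 7 of 16 and 12 of 25 below 0, with medians of 0.02 and 0.01. At an unadjusted p under 0.05, 6 spermatocyte marker probe sets (28.6%) were lower, against 8.31% of all and 12.6% of those above the median level. Of them 8 (38.1%) lay wholly under wild type, against 10.7% and 17.1%. Of the 23 Sertoli probe sets, 13 were higher at that p, against 6.81% of all, and 14 lay wholly above, against 8.62%. No spermatid marker had such a p. No marker of these 4 lists passed the adjusted threshold, and the part of these markers in the members' differences was not tested.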

How the data were processed

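The authors deposited 1 log2 value per probe set and array, and the submitters' processing notes name Affymetrix Expression Console 1.4.1. That these are log2 values follows from their range. Summarization and normalization were steps not given in the sources used here. In all, 45101 probe sets were listed, of which 64 Affymetrix controls were left out. Probe sets were named from the platform annotation (34945 with 1 symbol, 932 with several, 9160 with none). limma 3.58.1 in R 4.3.3 was fitted on genotype over all 45037 probe sets, as a two-sided test; p-values were adjusted by Benjamini-Hochberg and read at 0.05, and every interval is from that fit. On simulated data for this comparison, with 45037 probe sets, changes of 0.5, 1, 2 and 3 on the log2 scale were recovered in 20%, 70%, 96% and 100% of cases. The number of arrays limits the precision. No 2 arrays repeated each other: correlations were 0.989 to 0.998. The members and lists were chosen with earlier results of these data known, so no set test was run. Values on every array are given for called members, for Rsph3a and, in each role group, for the 2 probe sets with the smallest p and the brightest one; other values shown were chosen after they were seen. Promoters are from RefSeq (GRCm38.p6). Alternatives were blocks for replicate number, title codes and 18S sets, quantile normalization, median centring, a level filter, trend with robust moderation, array weights, 1 probe set per gene, a threshold of 0.1 and each array left out.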

Additional observations from a re-analysis of the deposited data

How the results depend on the processing

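The rise of Rsph3a probe set 1432579_at passed the threshold in all 16 alternatives. It was 1.27 to 1.42 on the log2 scale (limma adjusted p from 0.000563 to 0.0404). The other Rsph3a probe set passed in none of the 14 alternatives that tested it. The count of members lower in knockout was 6 with array weights (Dnah1, Dnah2, Spef2, Dnah9, Spag17 and Hydin) and 0 to 2 with an array left out, the 2 being Dnah2 and Odf2 without wild type 3; it was 0 in the other alternatives. Without wild type 3 those probe sets of Dnah2 and Odf2 differed by -0.67 and -0.72. Wild type 3 is the only wild-type array of the low 18S set, so without it genotype is partly mixed with the 18S sets. Within the low 18S set, where wild type 3 is the comparison, they differed by -0.175 and 0.295. Over all probe sets, higher and lower counts were 12 and 4 with title code runs as a block, 66 and 44 with trend and robust moderation, 1654 and 1532 with array weights and 48 and 52 at a threshold of 0.1. Lower counts were 6 with the replicate number as a block, 42 among probe sets above the median level and 35 with 1 probe set per gene. With an array left out, 8 to 178 were higher and 4 to 998 lower; the largest were 178 and 998 without wild type 3 and 140 higher without knockout 1. The median of dynein arms was -0.25 with 18S sets as a block, -0.0927 with array weights and -0.24 to -0.0683 with an array left out, the last without wild type 3. That of the central pair was -0.185 with 18S sets as a block, -0.165 after quantile normalization, -0.28 among brighter probe sets and -0.26 to -0.165 with an array left out. Signs near 0 turned for Spag6, at -0.015 to 0.165 with an array left out, and for the brightest Akap3 probe set, at -0.0117 to 0.0283 with an array left out and -0.01 with 18S sets as a block. The causes were not tested. Deviations from the genotype mean correlated at 0.26, 0.07 and 0.12 between arrays with the same replicate number. Between knockout and wild-type arrays with different numbers they correlated at -0.2 to 0.13. With 3 arrays per genotype, these values cannot settle whether the numbers pair the arrays. With the replicate number as a block, Rsph3a rose by 1.37 (limma adjusted p = 0.0348), 22 probe sets were higher, and no member was lower.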

Other observations

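The genes next to Rsph3a on chromosome 17, 5 measured protein-coding genes on each side in RefSeq order, were read by 13 probe sets. Probe sets annotated to several genes were left out, so a nearer gene read only by such a probe set would be skipped. None of the 13 passed the adjusted threshold in limma (smallest adjusted p = 0.289). At an unadjusted p under 0.05, 3 differed. A probe set of Gtf2h5 and that of Rnaset2a were higher. Both were dim, with knockout means of 3.56 and 3.59 against 3.22 and 3.39 in wild type. The bright probe set of Gtf2h5 differed by 0.02. The probe set of Ccr6 was lower. Of all probe sets, 6.81% were higher and 8.31% lower at that p. Differences of the 13 neighbouring probe sets ran from -0.24 to 0.34. These neighbours were looked at after the Rsph3a values were seen.

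Markers of multiciliated epithelium, which also carries motile axonemes, had 8 of 11 probe sets (72.7%) below 0 and a median of -0.08. Below 0 were 48.6% of all probe sets and 55.6% of those above the median level. Several of these genes were bright in whole testis, such as Deup1 and Cfap126, with knockout means of 11.08 and 11.21. Foxj1 and Ccno are also in the list of ciliary transcription factors. What part such epithelium had in these values was not tested. The airway secretory gene Bpifa1 stood at 3.37, 3.29 and 6.47 on knockout arrays, against 3.24, 3.46 and 3.16 on wild-type arrays, so that only knockout 3 was high. Epididymis markers were dim, with a mean level of 3.76 to 3.85 on knockout arrays and 3.67 to 3.95 on wild-type arrays, and a median difference of 0.02. In both lists 0 passed in limma.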
